A study of Homo sapiens with 12 samples.

Results

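The 2 h response to LPS was measured in THP-1 cells held at 10% CO2, as 3 libraries with LPS against 3 without, which is 6 of the 12 libraries of the series. THP-1 is an established human monocytic leukaemia line, and every library came from cells transduced with lentiviral particles for a non-target shRNA, so no gene was targeted. The groups were 10% CO2 with LPS (LPS at 2.5 µg/ml during the last 2 of 4 h in the gas chamber) and 10% CO2 for 4 h without LPS, and, for comparison, 5% CO2 with LPS and 5% CO2. Cells of all 4 groups stood in buffered DMEM with serum. Membership was taken from the sample titles. Separate cultures are not stated for the replicates, and the p-values therefore reflect the scatter of these libraries, which may be technical.

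LPS is a component of the outer membrane of gram-negative bacteria. With the help of CD14 and MD-2 it is bound by TLR4, which recruits MYD88 and then TICAM1 (TRIF) and so activates NF-κB, the MAP kinases that feed AP-1, and the interferon regulatory factors. In monocytes the first hours of this response are known for bursts of cytokine and chemokine mRNAs, together with mRNAs of proteins that shut the same pathway down. Raised CO2 in buffered medium, known as buffered hypercapnia, separates the gas from the acidity it would otherwise cause.

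At 10% CO2, LPS raised the mRNAs of inflammatory chemokines and cytokines, many of them more than 16-fold, and all 11 NF-κB subunit and inhibitor genes rose with them. In the same 2 h the mRNAs of the monocyte chemokine receptors CCR2, CCR1 and CX3CR1 fell, as did those of MYC, MYB and the myeloid lineage factors CEBPA and GFI1. Antiviral genes of the interferon class gave a partial response, in which 23 of 58 listed genes rose (39.7%) and 3 fell (5.17%). Over all genes tested, 16.6% rose and 18.6% fell. Within the TLR4 receptor chain the kinases IRAK2 and MAP3K8 rose furthest. For 4 genes, HIVEP2, PDGFA, CD44 and STARD4, the response was larger at 10% than at 5% CO2 by the test of that difference. HIVEP2 kept its call whichever library was left out, while the other genes each lost theirs in several such fits.

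Depth was 18.5 to 22.2 M counts per library at 10% CO2 (17.1 to 22.2 over all 12), and 16402 genes were tested with edgeR's quasi-likelihood test. A gene is called where its Benjamini-Hochberg adjusted p over all genes tested is under 0.05, and "rose" and "fell" refer to called genes. Values are CPM, the counts-per-million scale, after TMM normalization, and fold changes are log2 of 10% CO2 with LPS over 10% CO2. The ± value of a log2 fold change or difference is its absolute size divided by the square root of the test's F statistic. It is not a standard error estimated for the coefficient, and it may understate the error where counts without LPS are few. All 12 markers listed for the monocytic line, among them SPI1, LYZ and ELANE, were tested and averaged at least 1 CPM. Their summed level was 3100 to 3510 CPM with LPS and 2550 to 3470 CPM without. Of 23 markers of other cell types, 3 averaged at least 1 CPM and 1 (HBA1) was at 0 in all 6 libraries. DCN, the connective tissue proteoglycan decorin, was the 1 of these that rose, with 44 counts over the libraries with LPS against 0 without, at least 5.82-fold. Those 23 summed to 19.8 to 22.8 CPM with LPS and 17.6 to 21.5 CPM without, and their part in the results was not tested. In bulk RNA, fewer cells of a kind and less RNA per cell cannot be told apart.

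LPS changed 5773 of the 16402 genes (35.2%), of which 2727 rose (16.6%) and 3046 fell (18.6%). The rises were larger than the falls. At least 2-fold changes numbered 948 upward (5.78% of genes tested) and 799 downward (4.87%), 508 genes rose and 123 fell at least 4-fold, and 203 rose at least 16-fold against 4 that fell so far. The median log2 fold change over all genes tested was -0.02. All libraries of one group lay beyond all of the other for 96.7% of the called genes and for 46.1% of all genes tested. The share of calls that were rises was 47.2%, and it was 50.8% with DESeq2's size factors in place of TMM and 51.0% with DESeq2 itself, so whether rises or falls were more frequent depended on the scaling.

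**Figure D1:**
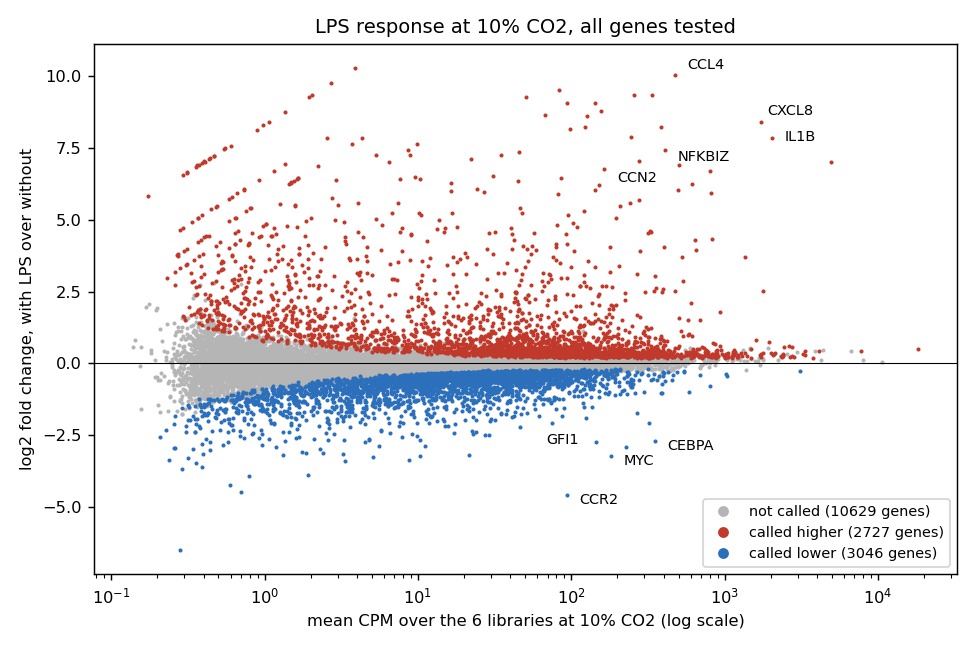
Each point is 1 of the 16402 genes tested, with the mean CPM over the 6 libraries at 10% CO2 on the x axis (log scale) and the log2 fold change of LPS over no LPS on the y axis, red where the gene was called higher (2727), blue where called lower (3046) and grey where not called. Red points reach up to about 10 on the log2 scale while blue points seldom pass -4, and the diagonal streaks at the upper left are genes with hardly any counts without LPS, whose fitted values depend on the prior count.

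Chemokines, the secreted proteins that attract leukocytes, included the largest rise among called genes averaging 5 CPM or more. Of 30 listed, 17 rose, against 16.6% of all genes tested. Another 4 were tested and did not pass, and 9 were too low to test. The filter on low counts keeps a gene that is expressed in 1 group alone, so members seen only with LPS could hardly pass it without differing. CCL4, the ligand MIP-1β that attracts monocytes and T cells, had 949, 981 and 897 CPM with LPS, against 0.82, 0.659 and 1.15 CPM without (log2 fold change 10.05 ± 0.18, adjusted p = 5.69e-18). Its 3 libraries with LPS were close together and far above the others. CXCL8, the neutrophil attractant interleukin 8, had 3739.9, 3467 and 3152 CPM with LPS, against 11, 9.43 and 9.76 CPM without (log2 fold change 8.42 ± 0.26, adjusted p = 3.11e-10). CXCL3, another neutrophil attractant, had 169, 169 and 156 CPM with LPS, against 0.182, 0.406 and 0.0883 CPM without (log2 fold change 9.52 ± 0.25, adjusted p = 4.08e-15). In each of these the groups stood far apart, and the level without LPS was at the edge of detection for CXCL3 but well measured for CXCL8.

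CXCL1 and CXCL2, close relatives of CXCL3, rose by 8.79 ± 0.25 and 8.60 ± 0.20 on the log2 scale. CCL3, the CCR1 ligand MIP-1α, averaged 489.6 ± 35.7 CPM with LPS and 2.03 ± 0.48 CPM without (SD, n = 3 each, log2 fold change 7.90 ± 0.16, adjusted p = 3.35e-17). CCL4L2 and CCL3L3 are near-identical copies of CCL4 and CCL3, rose by 9.37 and 6.79 on the log2 scale, and share reads with them in a way the counts do not resolve. CCL20, the CCR6 ligand, rose by 8.23, and CCL2, the main ligand of CCR2, by 3.81 (adjusted p = 2.75e-05).

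The interferon-linked chemokine CXCL10, a T cell attractant, had 193, 385 and 283 CPM with LPS, against 0.182, 0.912 and 0.53 CPM without (log2 fold change 9.06 ± 0.59, adjusted p = 2.57e-06). Its libraries with LPS differed from each other by more than those of CCL4 did. Lack of overlap between its groups was a condition of the rule for the largest rises. CXCL9, of the same branch, had 276 counts over the 3 libraries with LPS and 1 count over those without, a ratio of 325 with a 95% counting interval of 57.9 to 12900. CXCL16, the transmembrane chemokine, did not pass (log2 fold change -0.49 ± 0.31, adjusted p = 0.246), nor did CCL22, CCL23 and CCL24, at 0.12, 0.03 and -0.10.

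**Figure D2:**
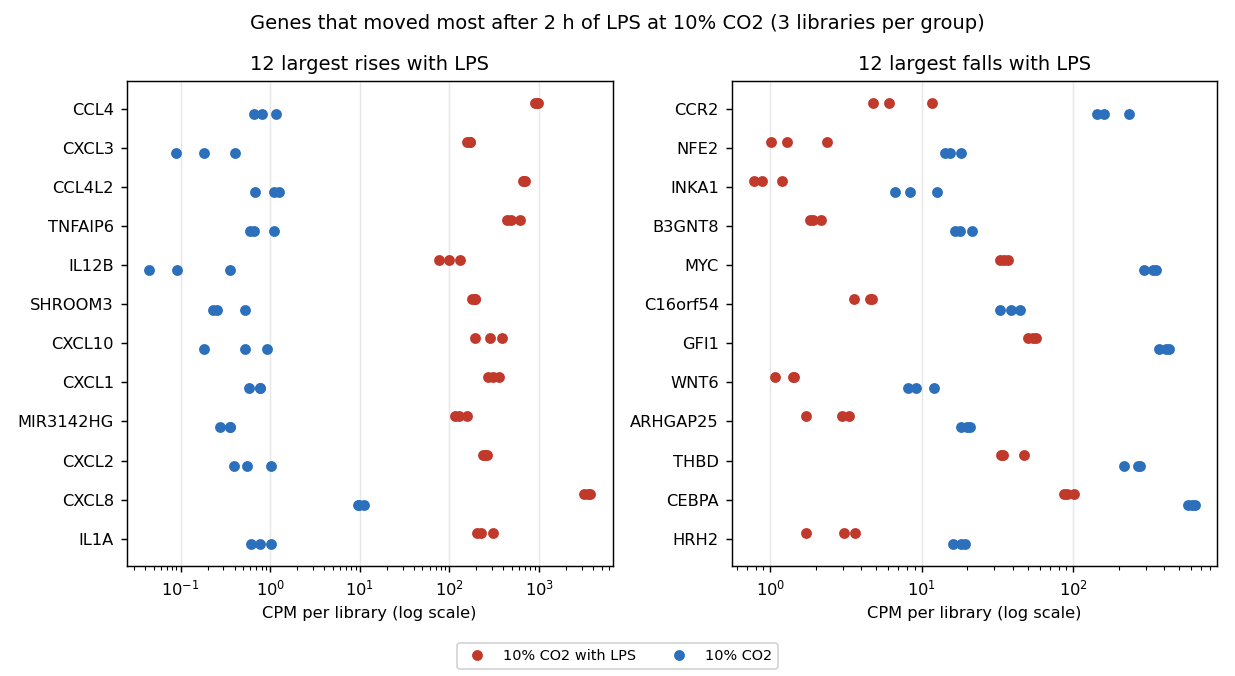
Points are single libraries, 3 with LPS (red) and 3 without (blue) at 10% CO2, for the 12 largest rises (left) and 12 largest falls (right) of called genes that averaged 5 CPM or more and had no overlap between groups, with CPM on a log x axis. In the left panel CCL4 sits between 897 and 981 CPM with LPS and near 1 CPM without, and in the right panel CCR2 sits between 4.78 and 11.8 CPM with LPS and between 144 and 235 CPM without.

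The promoters of CXCL1, CXCL2 and CXCL3 are shown because these genes rose together and carry the same NF-κB motif at nearly the same distance from the start, and that of TNFAIP3 because it carries a pair. Each run is the 150 bases before the RefSeq transcript start on GRCh38.p14, 5′ to 3′ on the gene's strand, with matches to the κB consensus in capitals. They lie at chr4:73869243-73869392 (plus strand), chr4:74099196-74099345 (minus strand), chr4:74038690-74038839 (minus strand) and chr6:137867109-137867258 (plus strand).
CXCL1: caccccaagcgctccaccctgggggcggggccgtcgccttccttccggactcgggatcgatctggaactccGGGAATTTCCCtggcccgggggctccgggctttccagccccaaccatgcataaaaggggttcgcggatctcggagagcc
CXCL2: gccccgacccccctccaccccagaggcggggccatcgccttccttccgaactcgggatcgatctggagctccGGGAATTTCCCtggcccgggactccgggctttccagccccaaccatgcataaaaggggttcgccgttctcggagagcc
CXCL3: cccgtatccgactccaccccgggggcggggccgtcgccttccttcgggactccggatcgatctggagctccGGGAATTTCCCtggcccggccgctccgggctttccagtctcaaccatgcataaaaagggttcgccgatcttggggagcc
TNFAIP3: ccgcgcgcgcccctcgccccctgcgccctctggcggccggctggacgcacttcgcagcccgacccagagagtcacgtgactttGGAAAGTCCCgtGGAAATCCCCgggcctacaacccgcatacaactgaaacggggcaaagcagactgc

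The match of CXCL1 and of CXCL3 begins at base -79 and that of CXCL2 at -78, counted back from the start. Each is a run in which matches to the consensus lie in overlapping frames. TNFAIP3 has its matches at -67 to -58 and at -55 to -46. The consensus was searched on both strands. Over 300 bases (250 before to 50 after the start), it was found in 17.2% of promoters of genes at least 2-fold higher with LPS, in 15.7% for genes at least 2-fold lower, in 13.4% for all tested genes and in 11.3% of the 35116 RefSeq promoters. By promoter, the share was 46.7% of 15 for chemokines that rose and 64.7% of 17 for NF-κB subunit and inhibitor genes. A gene can have several promoters. Counted by gene, 7 of 13 of these chemokines and 8 of 9 of these NF-κB genes held a match, against 1985 of 11523 tested genes. Only genes whose symbol was in the promoter set could be counted. It thus covered 13 of the 17 chemokines that rose, 9 of the 11 NF-κB genes and 11523 of the 16402 genes tested. A match describes these letters and is not a bound site.

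The AP-1 motif TGANTCA, with N any base, was in 9.05% of promoters of genes at least 2-fold higher, in 6.65% for genes at least 2-fold lower and in 5.23% for all tested genes. The interferon response motif, searched as GAAANNGAAA on both strands, was in 4.25%, 2.77% and 3.01% of promoters in the same order.

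The CXC chemokine genes stand in groups on the long arm of chromosome 4, and their neighbourhood was looked at after their values were seen. Of 25 tested genes in it, 17 rose, 1 fell and 9 rose at least 16-fold. Over all 16402 genes tested, 16.6% rose, 18.6% fell and 203 genes rose at least 16-fold. The region was drawn around genes that rose, so its counts are descriptions. CXCL8, CXCL6, CXCL1, CXCL3 and CXCL2 lie in a first group and CXCL9, CXCL10 and CXCL11 in a second, with CXCL2 357 kb and CXCL9 2261 kb beyond CXCL8. Of the 8 tested genes between CXCL2 and CXCL9, 3 rose, against 16.6% of all genes tested. PARM1 had the largest change of these at 1.45 on the log2 scale. The genes that rose at least 16-fold included a pair that are not chemokines. SHROOM3, an actin-binding regulator of cell shape, had 191, 193 and 177 CPM with LPS, against 0.228, 0.254 and 0.53 CPM without (log2 fold change 9.07 ± 0.22, adjusted p = 3.72e-16), and its 3 libraries with LPS were close together. RASSF6, a Ras-association domain protein beside CXCL8, had 928 counts over the libraries with LPS, against 6 without, a ratio of 182 (95% counting interval 83.4 to 498).

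Cytokine genes moved in both directions. Of 39 listed, 17 rose (43.6%) and 5 fell (12.8%), against 16.6% and 18.6% of all genes tested. Another 6 were tested without passing and 11 were too low to test. IL1B, the precursor of interleukin 1β, had 4695, 3908 and 3617 CPM with LPS, against 20.5, 14.8 and 17.8 CPM without (log2 fold change 7.84 ± 0.20, adjusted p = 1e-12). TNF had 1074, 953 and 919 CPM with LPS, against 14.9, 8.52 and 20.8 CPM without (log2 fold change 6.05 ± 0.30, adjusted p = 1.18e-07), and in proportion its libraries without LPS were further apart than those with it. IL12B, the p40 chain shared by interleukins 12 and 23, had 98.3, 129.6 and 76.1 CPM with LPS, against 0.0911, 0.355 and 0.0442 CPM without (log2 fold change 9.29 ± 0.32, adjusted p = 1.55e-12). The groups of IL1B and of TNF did not overlap, which for IL12B was a condition of the rule for the largest rises.

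IL1A, the other interleukin 1 agonist, rose by 8.25 ± 0.32 on the log2 scale. INHBA, which encodes the activin A subunit, had 964 counts over the libraries with LPS, against 7 without, a ratio of 162 (95% counting interval 78.5 to 405). LIF, a cytokine of the interleukin 6 class, averaged 17.1 ± 0.599 CPM with LPS and 0.74 ± 0.245 CPM without (SD, n = 3 each, log2 fold change 4.51 ± 0.27, adjusted p = 5.88e-10). IL32 and TNFSF15, a TNF family ligand, rose by 5.03 and 4.05. IL6 had 114 counts with LPS and 0 without, at least 15.2-fold higher against a floor of 3 counts per library, and CSF3, the granulocyte growth factor, had 125 counts against 1, a ratio of 147 (95% counting interval 26.0 to 5860).

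Among members that fell were TNFSF14 (LIGHT), at 7.75, 6.88 and 6.54 CPM with LPS, against 45.5, 31.5 and 39.6 CPM without (log2 fold change -2.47 ± 0.17, adjusted p = 4.25e-09), and IL16, a chemoattractant for CD4+ cells, at a log2 fold change of -3.17. The survival factor of B cells TNFSF13B and the death ligand TNFSF10 (TRAIL) fell by 1.02 and 1.03 on the log2 scale. The interleukin 1 receptor antagonist IL1RN did not pass (log2 fold change 0.29 ± 0.16, adjusted p = 0.163), nor did IL18 at -0.28 or TGFB1 at 0.01. IL10, the anti-inflammatory cytokine, was too low to test, with at most 0.355 CPM in any library at 10% CO2.

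The TLR4 receptor chain moved unevenly. Of 31 listed members 13 rose (41.9%) and 5 fell (16.1%), against 16.6% and 18.6% of all genes tested. Another 10 did not pass and 3 were too low to test, among them LY96, which encodes MD-2 and reached at most 0.638 CPM. IRAK2, a kinase that sustains signalling downstream of MYD88, had 207, 177 and 170.2 CPM with LPS, against 6.38, 4.21 and 4.81 CPM without (log2 fold change 5.16 ± 0.18, adjusted p = 1.63e-12). MAP3K8, the kinase TPL2 that links NFKB1 to the ERK pathway, had 153, 233 and 144 CPM with LPS, against 7.83, 7.3 and 8.04 CPM without (log2 fold change 4.51 ± 0.26, adjusted p = 5.73e-08), with replicate 2 with LPS the highest. Every library with LPS lay above every library without for both kinases.

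TRAF3 and the adaptor TICAM1, both of the interferon branch, rose by 1.99 and 2.50 on the log2 scale, and TAB2 and the ubiquitin ligase PELI1 by 1.42 and 2.05. TLR4 itself had 44.9, 29.1 and 40.8 CPM with LPS, against 24.5, 15.7 and 16.3 CPM without (log2 fold change 1.02 ± 0.20, adjusted p = 0.00154). Its range with LPS stayed above its range without. CD14 did not pass, at 8.16, 4.84 and 6.97 CPM with LPS, against 9.88, 5.53 and 9.67 CPM without (log2 fold change -0.33 ± 0.34, adjusted p = 0.501), with overlapping groups. The kinases IRAK1 and IRAK4 and the ligase TRAF6 did not pass either, at -0.06, -0.01 and 0.26. Of members that fell, CD180, a TLR4 relative that restrains it, had 0.946, 0.359 and 0.382 CPM with LPS, against 3.69, 2.43 and 1.94 CPM without (log2 fold change -2.27 ± 0.44, adjusted p = 0.000622), and the bridging adaptor TIRAP and the kinase partner TAB1 fell by 0.82 and 0.86 on the log2 scale.

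Of 24 other pattern receptors 6 rose (25%), 7 fell (29.2%) and 7 did not pass, shares not far from the 16.6% and 18.6% of all genes tested. TLR7, a sensor of single-stranded RNA, had 17.4, 22.8 and 19.3 CPM with LPS, against 0.683, 0.406 and 0.442 CPM without (log2 fold change 5.25 ± 0.25, adjusted p = 3.36e-12). TLR2, the receptor for bacterial lipoproteins, averaged 314 ± 19 CPM with LPS and 77.5 ± 9.94 CPM without (SD, n = 3 each, log2 fold change 2.02 ± 0.10, adjusted p = 3.62e-12). The C-type lectins CLEC4E (Mincle) and CLEC4D had 80 and 48 counts over the libraries with LPS, against 1 and 0 without, a ratio of 94.3 (16.4 to 3770) and a rise of at least 6.27-fold. The peptidoglycan sensor NOD1 fell by 1.65 on the log2 scale, the formyl peptide receptor FPR2 by 2.12, and STING1, the adaptor of DNA sensing, by 1.01. NLRP3, the inflammasome sensor, had 66.5, 54.3 and 62.1 CPM with LPS, against 108, 98 and 111 CPM without (log2 fold change -0.80 ± 0.12, adjusted p = 2.87e-05), with no overlap between the groups.

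Every one of the 11 NF-κB subunit and inhibitor genes rose, with a median log2 fold change of 3.59, against -0.02 for all genes tested. NFKBIZ, which encodes the nuclear inhibitor-like protein IκBζ that is needed for a later set of targets, had 903, 806 and 736 CPM with LPS, against 5.1, 4.66 and 4.5 CPM without (log2 fold change 7.42 ± 0.12, adjusted p = 7.12e-19). NFKBIA, the classical inhibitor IκBα, had 1303, 1205 and 1136 CPM with LPS, against 63.5, 51.8 and 71.4 CPM without (log2 fold change 4.29 ± 0.12, adjusted p = 1.82e-15). Both were separated widely. NFKB1 and NFKB2, the precursors of p50 and p52, rose by 3.71 and 4.62 on the log2 scale, RELB by 4.05 and REL by 3.58. RELA, the p65 subunit, moved least, at log2 fold change 0.30 ± 0.09, adjusted p = 0.017.

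Feedback brakes on the pathway also rose in part, with 12 of 26 higher (46.2%), 8 lower (30.8%) and 5 not passing. Over all genes tested, 16.6% rose and 18.6% fell. TNFAIP3, the ubiquitin editor A20, had 1853, 1438 and 1489 CPM with LPS, against 32.4, 23.6 and 22.9 CPM without (log2 fold change 5.92 ± 0.22, adjusted p = 8.64e-10). Its partner TNIP3 had 48.5, 46 and 36.7 CPM with LPS, against 0.319, 0.355 and 0.265 CPM without (log2 fold change 7.11 ± 0.24, adjusted p = 3.55e-14), and TNIP1 rose by 2.65 on the log2 scale. These A20-linked genes and the deubiquitinase CYLD, at 1.69, all moved upward. SOCS3, which restrains interleukin 6 class signalling, averaged 281 ± 41.5 CPM with LPS and 4.27 ± 0.847 CPM without (SD, n = 3 each, log2 fold change 6.03 ± 0.17, adjusted p = 3.93e-14), while CISH, SOCS2 and SOCS1 of the same family fell by 2.43, 0.91 and 1.52 on the log2 scale.

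DUSP phosphatases, which switch off MAP kinases, counted 6 of 11 higher (54.5%) and 3 lower (27.3%), against 16.6% and 18.6% of all genes tested. DUSP8 had 83.1, 74.7 and 75.3 CPM with LPS, against 3.01, 2.69 and 3.05 CPM without (log2 fold change 4.73 ± 0.17, adjusted p = 7.73e-14). DUSP16, which acts on JNK, rose by 3.13 and DUSP1, the classical early brake on p38, by 2.92 on the log2 scale, whereas DUSP7 fell by 1.24. Of 20 mRNA decay factors 10 rose and 3 fell. ZC3H12A, the RNase Regnase-1 that degrades cytokine mRNAs, had 538, 568 and 530.4 CPM with LPS, against 8.7, 8.72 and 14.3 CPM without (log2 fold change 5.68 ± 0.18, adjusted p = 1.63e-12), and its relative ZC3H12C rose by 3.92. ZFP36 (tristetraprolin), which binds AU-rich elements, rose by 0.83, while its relative ZFP36L2 had 128, 127 and 115 CPM with LPS, against 452, 365 and 419 CPM without (log2 fold change -1.74 ± 0.09, adjusted p = 2.19e-11). The ZFP36 family thus held members that moved in opposite directions, without overlap in either.

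AP-1 and immediate early genes, which answer stimuli without new protein synthesis, mostly rose. Of 19 AP-1 factors 13 rose (68.4%) and 3 fell (15.8%), against 16.6% and 18.6% of all genes tested. JUN had 617, 645 and 616 CPM with LPS, against 82.3, 55.6 and 88.5 CPM without (log2 fold change 3.05 ± 0.21, adjusted p = 4.65e-07), JUNB rose by 2.69, ATF3 by 2.55 and MAFF by 3.12, and FOS by only 0.56 on the log2 scale. FOSL2 and BATF fell by 1.00 and 0.82. Of 40 immediate early genes 27 rose (67.5%) and 7 fell (17.5%), the share of falls being near that of all genes tested.

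EGR2, a zinc finger factor of macrophage activation, had 88.6, 92.4 and 92.1 CPM with LPS, against 0.456, 0.71 and 0.486 CPM without (log2 fold change 7.37 ± 0.16, adjusted p = 2.76e-17), with closely grouped libraries with LPS. The nuclear receptors NR4A3 and NR4A2 rose by 7.25 and 4.60, and CCN2, the matricellular protein CTGF, averaged 992 ± 56 CPM with LPS and 8.27 ± 0.964 CPM without (SD, n = 3 each, log2 fold change 6.91 ± 0.14, adjusted p = 5.69e-18). BTG2, an antiproliferative factor that recruits deadenylases, had 1253, 1220.1 and 1137 CPM with LPS, against 19.5, 12 and 15.5 CPM without (log2 fold change 6.26 ± 0.15, adjusted p = 8.28e-16). Against this direction the helix-loop-helix inhibitors ID2 and ID3 fell by 1.24 and 1.81 on the log2 scale.

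MYC, which is on the immediate early and growth lists, had 37, 32.8 and 35 CPM with LPS, against 295, 337 and 353 CPM without (log2 fold change -3.23 ± 0.11, adjusted p = 2.17e-14), and its libraries with LPS all lay far below those without. Of 35 growth and cell cycle genes 7 rose (20.0%) and 13 fell (37.1%), against 16.6% and 18.6% of all genes tested. Among the MYC partners, MXD1, an antagonist of MYC, had 72.1, 46.3 and 56.2 CPM with LPS, against 11.7, 8.36 and 12.6 CPM without (log2 fold change 2.41 ± 0.25, adjusted p = 1.49e-05), and MNT, another antagonist, fell by 1.31. The atypical repressor E2F7 rose by 2.35, the cyclin genes CCND1 and CCNE2 by 1.25 and 1.52, and CDK6 by 1.23 on the log2 scale. The mitotic kinase AURKA fell by 0.79, and MKI67, the proliferation marker, did not pass (log2 fold change -0.37 ± 0.17, adjusted p = 0.106).

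Of 58 interferon-stimulated genes 23 rose (39.7%) and 3 fell (5.17%), against 16.6% and 18.6% of all genes tested. Another 31 did not pass, and the median log2 fold change was 0.26 over those tested. IFNB1, the interferon β gene, had 0.71, 1.14 and 0.954 CPM with LPS, against 0.137, 0 and 0.0442 CPM without (adjusted p = 0.000166). That is 51 counts over the libraries with LPS, against 4 without, a ratio of 15.0 (95% counting interval 5.52 to 57.2), and the level without LPS was below that of 3 counts per library. GBP2, a guanylate-binding protein that attacks intracellular pathogens, had 54.2, 59.4 and 53.4 CPM with LPS, against 3.01, 1.83 and 2.34 CPM without (log2 fold change 4.53 ± 0.16, adjusted p = 3.81e-14), and GBP5 and GBP3 rose by 2.25 and 2.15. IFIT2, which binds viral RNA, rose by 2.01 and the RNA sensor IFIH1 (MDA5) by 1.87. The classical antiviral effectors MX1 (log2 fold change 0.18 ± 0.13, adjusted p = 0.297), RSAD2 (log2 fold change -0.50 ± 0.20, adjusted p = 0.059) and IFI44L (log2 fold change 0.32 ± 0.16, adjusted p = 0.127) did not pass. The ubiquitin ligase TRIM21 and the DNA sensor IFI16 fell by 0.73 and 0.56 on the log2 scale, and 5 members fell when LPS replicate 3 was left out.

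The interferon regulatory factors themselves counted 4 of 11 higher (36.4%) and 5 lower (45.5%), against 16.6% and 18.6% of all genes tested. IRF1 and IRF7 rose by 0.65 and 0.74, and IRF9, the DNA-binding part of the interferon-activated complex ISGF3, by 1.08. IRF5, a factor of inflammatory macrophages, had 42.8, 39.2 and 42.1 CPM with LPS, against 98.5, 106 and 117 CPM without (log2 fold change -1.37 ± 0.10, adjusted p = 1.95e-09), without overlap. IRF3, which is activated by phosphorylation, did not pass (log2 fold change -0.19 ± 0.11, adjusted p = 0.188).

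More receptors for chemoattractants fell than rose. Of 17 listed, 2 rose (11.8%) and 6 fell (35.3%), against 16.6% and 18.6% of all genes tested. Another 5 did not pass and 4 were too low to test. CCR2, the receptor by which classical monocytes leave the bone marrow, had 11.8, 4.78 and 6.06 CPM with LPS, against 235, 159 and 144 CPM without (log2 fold change -4.58 ± 0.45, adjusted p = 4.78e-05), with replicate 1 the highest in both groups. CCR1 had 8.57, 9.33 and 8.73 CPM with LPS, against 58.9, 45.1 and 44.5 CPM without (log2 fold change -2.48 ± 0.17, adjusted p = 5.06e-09). CX3CR1, the fractalkine receptor, had 16.6, 8.31 and 13.4 CPM with LPS, against 57.4, 43.4 and 50.6 CPM without (log2 fold change -1.98 ± 0.21, adjusted p = 4e-06), and CXCR2, a receptor of CXCL8, fell by 2.08 on the log2 scale. For each of the first 3 the groups were well apart. The complement receptor C3AR1 rose instead, at 145, 134 and 144 CPM with LPS, against 10.6, 9.99 and 11.8 CPM without (log2 fold change 3.70 ± 0.10, adjusted p = 1.15e-15), and CXCR4 did not pass (log2 fold change 0.34 ± 0.13, adjusted p = 0.0516). With the replicate number as a block, and also without untreated replicate 1, 4 receptors rose.

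Of 41 monocyte identity genes 3 rose (7.32%), 11 fell (26.8%) and 24 did not pass, against 16.6% and 18.6% of all genes tested that rose and fell. CEBPA, the factor that commits progenitors to the myeloid lineage, had 100.5, 90.2 and 86.3 CPM with LPS, against 606, 574 and 639.6 CPM without (log2 fold change -2.72 ± 0.19, adjusted p = 2.72e-07). GFI1, a repressor of monocyte in favour of granulocyte fate, had 50.1, 53.9 and 57.2 CPM with LPS, against 370.5, 429 and 406 CPM without (log2 fold change -2.90 ± 0.15, adjusted p = 2.5e-10). MYB, a factor of immature cells, had 109, 125 and 132 CPM with LPS, against 539, 551 and 466 CPM without (log2 fold change -2.09 ± 0.11, adjusted p = 2.44e-11). MYB fell without overlap, which for CEBPA and GFI1 was a condition of the rule for the largest falls. CEBPE, of later granulocyte stages, fell by 2.56. SPI1 (PU.1), a factor of myeloid development, rose by 0.56 on the log2 scale. Granule protein genes such as ELANE (0.09) and AZU1 (0.08) did not pass, and neither did CEBPB (log2 fold change 0.14 ± 0.09, adjusted p = 0.21).

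Further genes among the 12 largest falls were NFE2, a bZIP factor of the erythroid and megakaryocyte lineages, at 2.37, 1.02 and 1.29 CPM with LPS, against 15.3, 14.2 and 18 CPM without (log2 fold change -3.36 ± 0.21, adjusted p = 2.41e-10), and B3GNT8, a glycosyltransferase that extends poly-lactosamine chains, at 1.83, 2.15 and 1.91 CPM with LPS, against 16.6, 17.8 and 21.3 CPM without (log2 fold change -3.24 ± 0.21, adjusted p = 5.65e-10). Lack of overlap between groups was a condition for being named among these falls. THBD, the anticoagulant receptor thrombomodulin, had 47, 33.4 and 34.6 CPM with LPS, against 274, 216 and 269 CPM without (log2 fold change -2.72 ± 0.18, adjusted p = 9.21e-08). INKA1, C16orf54, WNT6, ARHGAP25 and the histamine receptor gene HRH2 fell by 3.24, 3.17, 2.89, 2.88 and 2.65 on the log2 scale.

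Of 35 adhesion and costimulation genes, 18 rose (51.4%) and 5 fell (14.3%), against 16.6% and 18.6% of all genes tested. ICAM1, the ligand of leukocyte integrins, had 345, 288 and 271 CPM with LPS, against 4.6, 3.24 and 4.19 CPM without (log2 fold change 6.22 ± 0.20, adjusted p = 5.07e-12). CD83, a marker of mature dendritic cells, averaged 404 ± 36.8 CPM with LPS and 9.0 ± 0.838 CPM without (SD, n = 3 each, log2 fold change 5.49 ± 0.10, adjusted p = 5.52e-18), and the costimulatory receptor CD40 had 139, 179 and 147 CPM with LPS, against 13.1, 12.6 and 15.2 CPM without (log2 fold change 3.50 ± 0.16, adjusted p = 1.89e-11). In all 3 the libraries with LPS stood above the rest. CD69, an early activation marker, had 430 counts over the libraries with LPS and 0 without, at least 55.6-fold higher. SELPLG, the P-selectin ligand, fell by 1.54 and the TNF receptor TNFRSF1B by 1.60 on the log2 scale, and CD86, a ligand of CD28, did not pass (log2 fold change -0.66 ± 0.34, adjusted p = 0.138).

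Survival and death genes counted 17 of 36 higher (47.2%), 5 lower (13.9%) and 12 not passing. Over all genes tested, 16.6% rose and 18.6% fell. BIRC3, the ubiquitin ligase cIAP2 of TNF receptor signalling, had 97.6, 93.9 and 81.6 CPM with LPS, against 2.64, 2.03 and 1.72 CPM without (log2 fold change 5.41 ± 0.15, adjusted p = 1.15e-15). BCL2A1, an antiapoptotic BCL2 relative, had 99.3, 103 and 78.1 CPM with LPS, against 2.69, 1.98 and 2.69 CPM without (log2 fold change 5.24 ± 0.18, adjusted p = 5.5e-14). These antiapoptotic genes rose together with the proapoptotic BCL2L11 (BIM), at 2.05, and the caspase 8 regulator CFLAR, at 1.89, while BAK1 and CASP8 fell by 0.68 and 0.55. The count of members that fell was 3 when any of LPS replicate 1, LPS replicate 3 or untreated replicate 3 was left out.

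Of 44 effector enzymes and proteases, 20 rose (45.5%) and 4 fell (9.09%), against 16.6% and 18.6% of all genes tested. TNFAIP6, the hyaluronan-binding protein TSG-6, had 479.6, 609 and 441 CPM with LPS, against 0.592, 1.12 and 0.662 CPM without (log2 fold change 9.34 ± 0.27, adjusted p = 1.05e-11), with LPS replicate 2 the highest. PTGS2, the inducible cyclooxygenase of prostaglandin synthesis, had 189, 151 and 172 CPM with LPS, against 1.69, 1.93 and 2.12 CPM without (log2 fold change 6.47 ± 0.19, adjusted p = 4.53e-14), and GCH1, the first enzyme of tetrahydrobiopterin synthesis, averaged 155 ± 22.8 CPM with LPS and 5.4 ± 0.184 CPM without (SD, n = 3 each, log2 fold change 4.84 ± 0.16, adjusted p = 6.93e-14). ACOD1, which makes itaconate, had 295 counts with LPS against 0 without, at least 38.5-fold higher. SERPINB2, the plasminogen activator inhibitor PAI-2, fell by 2.19 and the protease ADAMTS4 by 2.75 on the log2 scale.

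SOD2, the mitochondrial superoxide dismutase, was not matched to an identifier by symbol. The identifier ENSG00000112096, at chr6:159669057-159762529 on GRCh38, covers 100% of the RefSeq span of SOD2 and averaged 9728 ± 982 CPM with LPS and 74.5 ± 7.63 CPM without (SD, n = 3 each, log2 fold change 7.03 ± 0.15, adjusted p = 1.99e-16). WTAP lies in the same span on the other strand, and with the strand setting of the counting not given in the sources used here, the strands cannot be told apart.

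Of 44 transport and fuel genes, 18 rose (40.9%), 3 fell (6.82%) and 22 did not pass, against 16.6% rising and 18.6% falling of all genes tested. SLC2A6, a sugar transporter of lysosomal membranes, had 471, 519 and 436 CPM with LPS, against 8.38, 9.73 and 11.8 CPM without (log2 fold change 5.57 ± 0.15, adjusted p = 1.48e-14). FTH1, the ferritin heavy chain that stores iron, had 3185, 3147 and 2791 CPM with LPS, against 624, 409 and 548 CPM without (log2 fold change 2.53 ± 0.19, adjusted p = 5.57e-07), and ACSL1, which activates long-chain fatty acids, rose by 2.87. Iron import by SLC11A2 (DMT1) and zinc import by SLC39A8 were represented by rises of 2.27 and 1.46 on the log2 scale. The glucose transporter SLC2A1 fell by 0.72, and the glycolytic genes HK2 (-0.23) and LDHA (0.08) did not pass.

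FOXO-linked quiescence genes, a set that growth factor signalling normally represses, split into 10 of 35 higher (28.6%) and 15 lower (42.9%). Over all genes tested, 16.6% rose and 18.6% fell. BCL6, a repressor that opposes NF-κB targets, had 129, 88.2 and 95.7 CPM with LPS, against 6.38, 5.63 and 6.45 CPM without (log2 fold change 4.08 ± 0.18, adjusted p = 3.01e-11). TXNIP, which restrains glucose uptake, had 624, 603 and 540.2 CPM with LPS, against 1094, 904 and 1040.1 CPM without (log2 fold change -0.78 ± 0.10, adjusted p = 5.05e-06), and PDK4, which blocks pyruvate entry into mitochondria, fell by 3.12 on the log2 scale. The first of these groups was separated more widely than the second, and neither overlapped. Of 19 long noncoding RNAs 11 rose (57.9%). MIR3142HG, the host transcript of miR-146a, a microRNA aimed at IRAK1 and TRAF6, had 128, 156 and 116 CPM with LPS, against 0.273, 0.355 and 0.353 CPM without (log2 fold change 8.65 ± 0.26, adjusted p = 1.44e-13), and MIR155HG, the host of miR-155, rose by 3.61 on the log2 scale.

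Chaperones rose by small steps, with 20 of 26 higher (76.9%, against 16.6% of all genes tested) and a median log2 fold change of 0.52 over those tested. DNAJB6 had 223, 245 and 190.4 CPM with LPS, against 116, 118 and 104 CPM without (log2 fold change 0.96 ± 0.09, adjusted p = 1.59e-07), and DNAJA1, a cochaperone of HSP70, 687, 861 and 589 CPM with LPS, against 347, 376 and 263 CPM without (log2 fold change 1.11 ± 0.17, adjusted p = 0.000287). HSP90AB1, the constitutive HSP90, rose by 0.59 and the mitochondrial HSPA9 by 0.51. The count of chaperones that rose was 11 without LPS replicate 2 and also 11 without untreated replicate 3. HSPA1A and HSPA1B are near-identical and share reads.

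The 13 mRNAs encoded by mitochondrial DNA had log2 fold changes of 0.34 to 0.54. Of these 1 rose (7.69%), against 16.6% of all genes tested, and it was MT-ND3 of complex I (log2 fold change 0.34 ± 0.11, adjusted p = 0.0196). It did not pass without LPS replicate 2 (adjusted p = 0.0979) or without untreated replicate 1 (adjusted p = 0.0803), while 2 of the 13 passed with the replicate number as a block and 3 without LPS replicate 3. The mitochondrial share of all counts was 2.92%, 4.15% and 2.28% with LPS, against 3.05%, 2.91% and 2.01% without. The groups overlapped, and the difference of 0.458 percentage points gave p = 0.5 by an exact two-sided permutation test, for which 3 against 3 libraries allow no p below 0.1. Without LPS replicate 2 the difference was -0.058 points and without LPS replicate 3 it was 0.876.

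The same LPS contrast at 5% CO2, in libraries that the one at 10% does not use but with the same estimate of the spread, called 4092 genes (24.9%). In the same direction at both CO2 levels were 3524 genes, which is 61.0% of the calls at 10% and 86.1% of those at 5%. Of the 1747 genes called and at least 2-fold changed at 10% CO2, 1721 had the same sign at 5% and 1423 were called there too. Of the 24 lists, 19 had a median log2 fold change further from 0 at 10% CO2, 4 had one further from 0 at 5%, and 1 was equal. The median was 3.59 at 10% and 2.88 at 5% CO2 for NF-κB genes, and 7.63 and 6.80 for the chemokines tested. It was 0.76 and 1.02 for the DUSP phosphatases and 0.43 and 0.56 for the AP-1 factors, and nearly level for immediate early genes (1.36 and 1.37) and other pattern receptors (-0.34 and -0.37).

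Sizes of change were also compared for genes picked by their change at 5% CO2, although the spread behind those calls and the level asked for came from all 12 libraries. Of 367 genes that rose at least 2-fold at 5% CO2 with a mean of at least 5 CPM, 281 (76.6%) had a larger change at 10%, with a median log2 fold change of 2.45 at 10% and 2.04 at 5%. Of 204 that fell at least 2-fold at 5%, 138 (67.6%) fell further at 10%, with medians of -1.49 and -1.20. Leaving out each library in turn gave 71.1% to 83.7% for the rises and 64.2% to 72.5% for the falls, and with the mean taken over the 5% CO2 libraries, a choice made after seeing the data, they were 76.1% of 355 and 67.3% of 202. Genes are not independent of each other, so these shares are given without a test.

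For single genes the difference between the responses was called for 4 of 16402 (0.0244%), and 989 (6.03%) had an unadjusted p under 0.05. HIVEP2, a zinc finger factor that binds κB-like sites, had 198, 195 and 198 CPM with LPS, against 33.2, 27.2 and 30.4 CPM without, at 10% CO2, and 121, 102 and 139 CPM with LPS, against 40.3, 41.5 and 43.4 CPM without, at 5%. Its 3 libraries of 10% CO2 with LPS were nearly equal and above all others, and those of 10% CO2 below all others (difference 1.17 ± 0.14, adjusted p = 0.00255). PDGFA, a growth factor for fibroblasts and smooth muscle, had 47.4, 61.1 and 51.6 CPM with LPS, against 3.28, 3.09 and 3.66 CPM without, at 10% CO2, and 30.4, 30.6 and 41.9 CPM with LPS, against 6.1, 4.91 and 5.25 CPM without, at 5% (difference 1.33 ± 0.22, adjusted p = 0.046). CD44, the hyaluronan receptor, had 391.7, 408 and 302 CPM with LPS, against 92.8, 75.5 and 71.4 CPM without, at 10% CO2, and 254, 203 and 249 CPM with LPS, against 131, 111 and 102 CPM without, at 5% (difference 1.17 ± 0.18, adjusted p = 0.046). For these genes too, the libraries of 10% CO2 with LPS all lay above those of 5% CO2 with LPS, and untreated libraries lay lower at 10% than at 5% CO2.

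STARD4, a carrier of sterols within the cell, had 83.4, 111 and 89.4 CPM with LPS, against 14.3, 14.1 and 14.7 CPM without, at 10% CO2, and 63, 64.2 and 72.7 CPM with LPS, against 19.7, 17.9 and 19.8 CPM without, at 5% (difference 0.92 ± 0.15, adjusted p = 0.046), in the same arrangement. Next in order, without passing, were CDK6, ANKRD28, PTPN1, PHLPP1, IKZF1, LGR4, LYN and DCBLD1, with adjusted p-values of 0.067 to 0.142. The count of 4 became 1 when untreated replicate 2 or 3 or LPS replicate 2 at 10% CO2 was left out, and likewise for each untreated library at 5% CO2 and LPS replicates 1 and 2 there. It became 2 without LPS replicate 3 at 10% CO2, 26 without untreated replicate 1 at 10% and 37 without LPS replicate 3 at 5%. HIVEP2 was called in every one of these fits, and PDGFA, CD44 and STARD4 each had an adjusted p of up to 0.238.

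**Figure D3:**
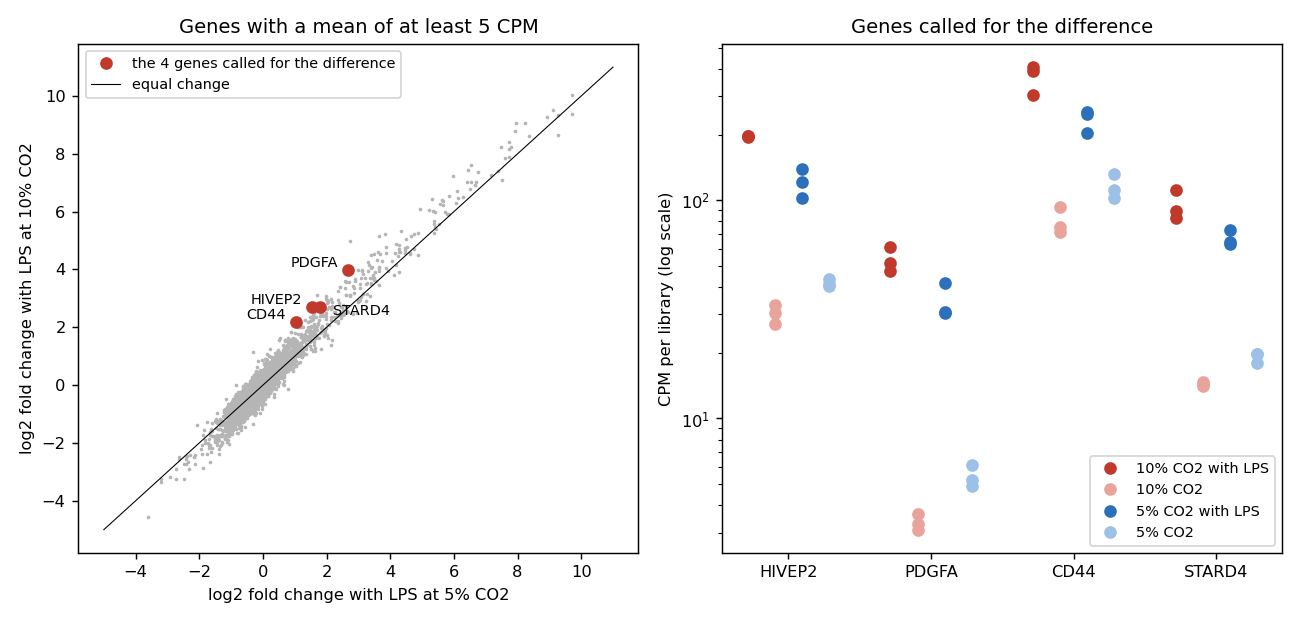
Left, the log2 fold change with LPS at 10% CO2 (y axis) against that at 5% CO2 (x axis) for genes that averaged 5 CPM or more, with the line of equal change and the 4 genes called for the difference in red. Right, CPM of those genes in single libraries (log scale) for 10% CO2 with LPS, 10% CO2, 5% CO2 with LPS and 5% CO2, where the pair of groups at 10% CO2 stands further apart than the pair at 5%.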

How the data were processed

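RNA of 12 THP-1 libraries was sequenced as poly(A)-selected pairs of 150 bases, per the labels' protocols. The deposited values were raw counts per Ensembl gene, 1 table per library. Trimmomatic 0.36, STAR 2.5.2b and featureCounts (Subread 1.5.2) were used on GRCh38, per the submitters' processing notes. The annotation release, and how strand and multiple mapping were treated, were not given in the sources used here, so antisense, overlapping and near-identical genes are uncertain.

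Of 57500 identifiers, 40907 (71.1%) were paired with a symbol and held 99.1% of counts. Counts were fitted with edgeR 4.0.16 (R 4.3.3; filterByExpr by group, TMM, robust quasi-likelihood F test, Benjamini-Hochberg) in a model of 4 group means on all 12 libraries; the biological coefficient of variation was 10.7%. The contrasts were LPS at 10% CO2, LPS at 5% CO2 and their difference. No replicate pair matched within counting noise, with a chi-square of 8.05 to 26.2 per degree of freedom. A floor of 3 counts averaged 0.14 CPM in the untreated 10% CO2 libraries; floors and intervals cover counting error only. At 10% CO2 same-numbered libraries deviated together (correlations 0.45, 0.43 and 0.21). The replicate numbers are not said to pair libraries, so the main fit held no replicate term and its p-values are unpaired. An alternative fit with the replicate number as a block called 6375 genes for LPS at 10% CO2, against 5773. Scripts were tested on simulated data.

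Members and the 24 gene lists were chosen with earlier results of these data known. Named genes are the 12 largest rises and falls among called genes averaging 5 CPM or more without overlap of groups, up to 6 rising and 4 falling members of each list by p, fixed genes such as TNF and IL10, and the 12 smallest p-values of the difference. For the 12 largest rises and falls, lack of overlap was thus set by the rule and is no further result. CCL2, CCL20, CSF3, CXCL6, CXCL9, CXCL11, ACOD1, RELA, FOS, SOCS1, RASSF6 and PARM1 were named after their values were seen. Alternatives were DESeq2 1.42.0, its size factors, no low-count filter, the 6 libraries alone, a replicate block and leaving out each library.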

Additional observations from a re-analysis of the deposited data

Results flagged for a closer look

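For 4 genes the LPS response differed between 10% and 5% CO2 by the test of the difference itself, and only HIVEP2 kept that call whichever library was left out. The difference in log2 fold change, 10% minus 5% CO2, was 1.17 for HIVEP2, 1.33 for PDGFA, 1.17 for CD44 and 0.92 for STARD4, with edgeR adjusted p-values of 0.00255, 0.046, 0.046 and 0.046. Each gene had its highest level in the 3 libraries of 10% CO2 with LPS and its lowest in those of 10% CO2 without it, so the difference rests on both ends. No group held enough libraries for a test of single libraries that stand apart.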

How the results depend on the processing

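The number of genes called for LPS at 10% CO2 stayed within 1.5 times of 5773: it was 5390 with the 6 libraries alone, 5752 with DESeq2, 5795 with its size factors, 5492 without a low-count filter and 6375 with the replicate block, and 4652 to 5923 when each library was left out in turn. Beyond the counts given above for chemokine receptors and mitochondrial mRNAs, the block changed no call of a gene named for this contrast and moved no list count by more than 1.5 times. The difference between CO2 levels was less stable than that. Its 4 genes became 51 with DESeq2, 1 with DESeq2's size factors, 108 without a low-count filter and 11 with the replicate block, and 1 to 37 when a library was left out; at 5% CO2 same-numbered libraries correlated at 0.58, 0.09 and 0.29, which does not pair them all. The cause was not tested. PDGFA, CD44 and STARD4 had an adjusted p of 0.0507 each with the size factors. The mitochondrial share had a difference of -0.058 to 0.876 points when a library was left out, with the sign turned without replicate 2 of 10% CO2 with LPS. Among genes named by the rule, DUSP4, DUSP6, GSDMD, IRF4, MT-ND3, PARP9 and SPHK1 lost their call in 30 of the 3671 alternative fits of single genes; none changed sign. Of the list counts, 799 of 816 stayed within 1.5 times. At these depths a gene near the floor of 3 counts in both groups could not be judged.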

Other observations

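Gene families outside the lists were counted after the values were seen, so their counts are descriptions. Of 464 tested ZNF genes, which encode zinc finger proteins, 159 fell (34.3%) and 28 rose (6.03%) with LPS at 10% CO2, against 18.6% and 16.6% of all genes tested, and the falls numbered 150 with DESeq2's size factors, 148 with DESeq2 and 128 without replicate 2 of 10% CO2 with LPS. At 5% CO2 196 of them fell and 10 rose, against 13.1% and 11.8% of all genes tested there. Of 13 HOX genes, which encode homeodomain factors of body patterning and blood progenitors, 11 fell, with a median log2 fold change of -0.92. Of 17 genes of the TNF receptor superfamily 8 fell and 4 rose.

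Cytosolic ribosomal protein genes moved the other way by a small step, with 58 of 80 higher (72.5%, against 16.6% of all genes tested) and a median log2 fold change of 0.27. The count was 65 with DESeq2's size factors and 43 without replicate 2 of 10% CO2 with LPS. Of 28 replication-dependent histone genes 8 rose (28.6%), against 4 without that library. Of 46 proteasome subunit genes 20 rose (43.5%) and 2 fell (4.35%), against 16.6% and 18.6% of all genes tested.

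Genes that changed at least 2-fold had a lower median span and a lower median level without LPS than all genes tested, with widely overlapping spans. The median span was 19009 bp (quartiles 5233 and 64930) for those higher, 12288 bp (4228 and 33446) for those lower and 25948 bp (8538 and 65824) for all genes tested. Their median exon blocks were 6, 5 and 9. Their median level without LPS was 1.15 CPM, 5.22 CPM and 15.8 CPM in the same order. That level enters the fold change, and the filter keeps genes expressed only with LPS, so it is not independent of how the genes were chosen.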
